A study of Mus musculus with 8 samples.

Results

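The CCR4-NOT complex is described here through 10 of its subunit genes: Cnot1, Cnot2, Cnot3, Cnot4, Cnot6, Cnot6l, Cnot7, Cnot8, Cnot10 and Cnot11. They were taken by gene name from each of the 3 deposited comparisons, where each occurs as a single locus, out of 29458 distinct gene names in all. The organoids were mouse retinal organoids at day 6 of differentiation, grown from Rx:GFP cells in which both endogenous Mettl3 alleles carry FKBP12F36V-HA at the C-terminal end. This degron tag was thus shared by all groups, controls included. The 4 groups of 2 replicates had received dTAG-13, the compound that triggers loss of the tagged protein, at 125 nM for 1, 8 or 24 h, or none (0 h). The labels do not say whether the line is 1 clone, whether the 0 h organoids received solvent, or whether replicates came from separate cultures.

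CCR4-NOT is the main cytoplasmic deadenylase of animal cells. It shortens the poly(A) tail of mRNA, which is followed by decapping and decay. CNOT1 is the scaffold on which the nucleases and the other subunits assemble. RNA-binding proteins bring the complex to chosen transcripts, among them YTHDF2, a reader of N6-methyladenosine (m6A), the mark that METTL3 writes. The level of the complex's own mRNAs after dTAG-13 is therefore described. Loss of the METTL3 protein itself was not measured in these tables.

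Every value below is the authors' value for a condition, combined over its 2 replicates, so replicates cannot be seen apart and no test over samples could be made. Levels are FPKM, fragments per kilobase of transcript scaled to the depth of the library, and the range beside a level is the interval the authors deposited with it. The conditions summed to between 31361518 and 32562075 estimated counts. Mettl3 mRNA, which the degron does not target, was 19.4 FPKM (10.7 to 28.1) before treatment and 19.4 (10.8 to 28.0) after 8 h. After 24 h it was 17.0 FPKM, with overlapping intervals. Of the eye field and retinal progenitor markers, 10 of 10 were above 1 FPKM at 0 h, from 18.1 to 142 FPKM, and so were 6 of 6 pluripotency markers, which had a summed level of 307 FPKM in the 8 h table. Neuronal, neural crest and photoreceptor markers were at most 1.49 FPKM in the same 0 h column, and endoderm and mesoderm markers at most 1.51. Of the 3 telencephalon markers, Emx2 was at 20.7 FPKM and Emx1 at 1.05.

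All 10 subunits were well expressed, and none passed the calling rule at 1, 8 or 24 h. The rule required a difference of at least 1.5-fold in FPKM, with 0.1 added to both values, and deposited intervals that do not overlap. Of all tested loci it called 0.402% after 1 h, 4.43% after 8 h and 5.48% after 24 h. The count of 0 of 10 subunits is to be read against those shares. No subunit reached 1.5-fold in either direction at any time. The lowest log2 ratios at 8 and 24 h were those of Cnot10 (-0.47 and -0.49) and Cnot3 (-0.38 and -0.43), and the highest were those of Cnot6l at 8 h (0.16) and Cnot8 at 24 h (0.25).

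**Figure D1:**
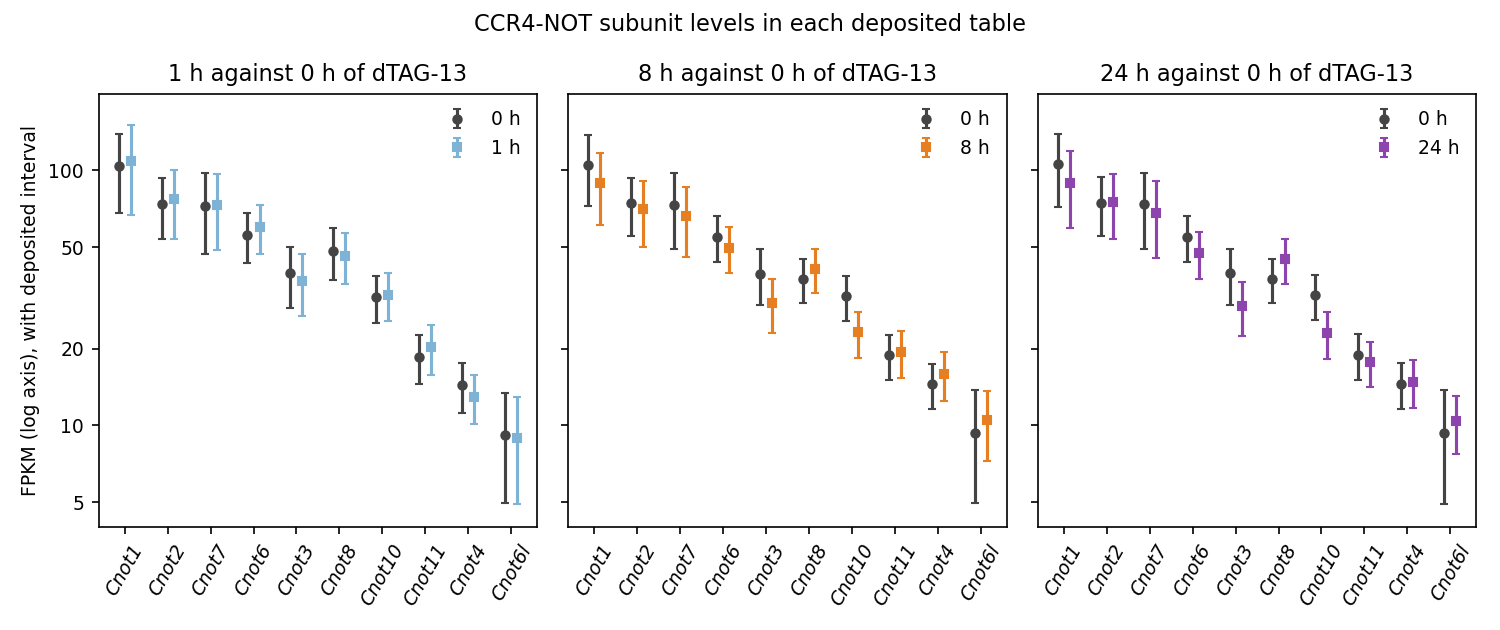
FPKM on a log axis for the 10 CCR4-NOT subunits, ordered by their 0 h level, in the 1, 8 and 24 h tables. Circles are 0 h, squares are the treated condition, and bars are the deposited intervals. The intervals of 0 h and of the treated condition overlap for every subunit at each time, and Cnot10 has the smallest overlap at 8 and 24 h.

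The subunits spanned 9.33 to 105 FPKM before treatment. Cnot1 was the highest at 0 h, with 105 FPKM (72.2 to 138) in the 8 h table. Cnot2 had 74.4 FPKM, Cnot7 73.2, Cnot6 54.8, Cnot3 39.3, Cnot8 37.5 and Cnot10 32.2. Below these lay Cnot11 with 18.8 FPKM, Cnot4 with 14.5 and Cnot6l with 9.33. The intervals of neighbours in this order overlapped except between Cnot10 and Cnot11. FPKM is per length, and the lengths behind the values were not examined. In the 1 h table Cnot8, with 48.3 FPKM, stood above Cnot3, with 39.4, so the order of those neighbours depends on the table. The estimated counts behind the values ran from 1369 to 24713, and their coefficient of variation at 0 h was between 9.25% and 13.5%. At these widths a subunit would have had to be lower by at least 32.6% (Cnot8) to 59.5% (Cnot6l) at 8 h for its intervals to separate. Smaller shifts were not detectable by this rule.

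The scaffold gene Cnot1 spans 95719451 to 95807464 of chromosome 8 (GRCm38, minus strand). The locus deposited with its levels was longer and ended at 95821728. The level of Cnot1 was 104 FPKM at 0 h and 109 at 1 h. After 8 h it was 88.8 FPKM (61.3 to 116) against 105 before. After 24 h it was 89.4 FPKM (59.5 to 119), again against 105. The difference at 8 h was -16.2 FPKM, with an interval of -59.1 to 26.7. That interval adds both deposited half-widths as the root of their squares and treats the conditions as independent. The later levels were below 0 h, well inside the intervals, and the log2 ratios were 0.07, -0.24 and -0.24 at 1, 8 and 24 h.

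CNOT2 and CNOT3 form the NOT module, which binds the C-terminal part of CNOT1 and serves as a docking surface for repressors. Cnot3, on chromosome 7 at 3645268 to 3661109 on the plus strand, was 39.4 FPKM at 0 h and 36.9 at 1 h. At 8 h its level was 30.3 FPKM (23.1 to 37.4) against 39.3 (29.6 to 49.0) before. At 24 h its level was 29.3 FPKM (22.3 to 36.3) against 39.4 (29.6 to 49.3). Both later levels were lower, with overlapping intervals. The difference was -9.05 FPKM (-21.1 to 3.03) at 8 h and -10.1 (-22.2 to 2.01) at 24 h. Cnot3 overlaps the 3′ end of Leng1, a gene on the opposite strand, by 1012 bases, and 20.5% of the 100-base windows of its representative transcript also occur in transcripts of Leng1 or Gm9207. The strand setting of the counting is not given in the sources used here, so its estimate is uncertain. The locus deposited for Cnot3 was longer than the gene, ended at 3677553 and overlapped the merged locus of Leng1 and Tmc4. That merged locus had log2 ratios of 0.01 at 8 h and 0.10 at 24 h. On estimated counts the Cnot3 ratios were -0.30 and -0.31, nearer to 0 than on FPKM.

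Cnot2, the partner of Cnot3 in the module, lies on chromosome 10 at 116485161 to 116581511. It had 76.9 FPKM after 1 h against 73.5 before, 70.2 after 8 h against 74.4, and 75.0 after 24 h against 74.7. Its log2 ratios of 0.07, -0.08 and 0.01 all lay within 0.1 of 0, which held for no other subunit. The difference at 24 h was 0.332 FPKM, and its interval ran from -28.6 to 29.3. Equal levels are thus not shown, since that interval spans large changes both ways.

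CNOT10 and CNOT11 form a module at the N-terminal end of CNOT1. Cnot10, on chromosome 9 at 114585878 to 114640184 on the minus strand, was 31.9 FPKM (25.1 to 38.6) at 0 h and 32.5 (25.6 to 39.4) at 1 h. After 8 h it was 23.2 FPKM (18.4 to 27.9) against 32.2 (25.7 to 38.6) before. After 24 h it was 23.0 FPKM (18.2 to 27.8) against 32.3 (25.8 to 38.8). The 1 h level was close to that at 0 h. The 8 and 24 h levels were lower, with intervals that still shared the range from 25.7 to 27.9 FPKM at 8 h. The change was -28.1% at 8 h and -28.9% at 24 h.

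Cnot10 was the only subunit whose interval of the difference lay on one side of 0, a criterion chosen after the values were seen. The difference was -9.03 FPKM (-17.0 to -1.04) at 8 h and -9.32 (-17.4 to -1.27) at 24 h. It held for 1 of 10 subunits at either time, and for 11.0% of all tested loci at 8 h and 12.8% at 24 h. In the lower direction alone, that of Cnot10, it held for 3.07% and 4.51% of tested loci. At 1 h it held for 0 subunits and for 1.02% of loci. The 8 and 24 h comparisons use the same 0 h libraries, so neither is a repeat of the other. Estimated counts gave log2 ratios of -0.46 and -0.54, from 3189 to 2317 counts at 8 h and from 3156 to 2176 at 24 h. No 100-base window of the Cnot10 transcript occurred in a transcript of another gene.

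Cnot11, on chromosome 1 at 39534992 to 39546889, had 20.3 FPKM after 1 h against 18.6 before, 19.3 after 8 h against 18.8, and 17.7 after 24 h against 18.9. Its log2 ratios were 0.13, 0.04 and -0.09. Cnot11 made up 36.9% of the summed FPKM of Cnot10 and Cnot11 before treatment. The share was 45.5% after 8 h and 43.5% after 24 h, and no test of it was possible with pooled replicates.

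**Figure D2:**
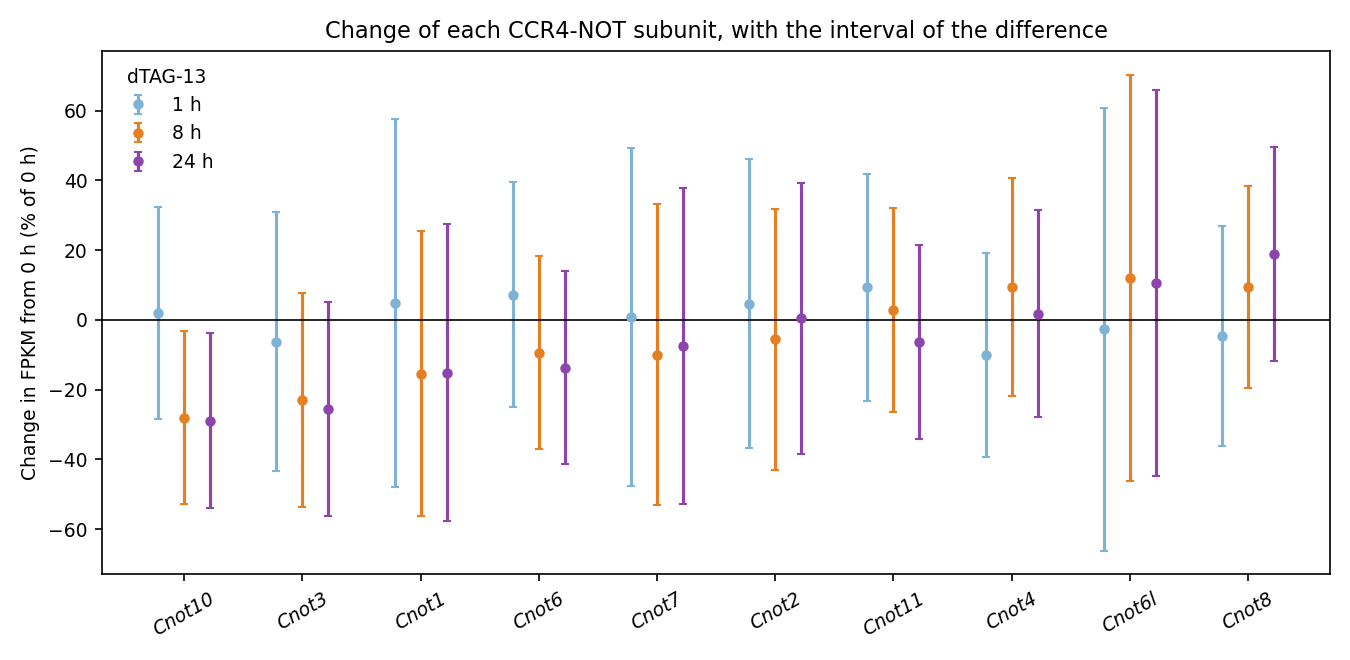
Change in FPKM from 0 h as a percentage of the 0 h level, by subunit and time, with subunits ordered by their mean log2 ratio at 8 and 24 h. Bars are the interval of the difference. Cnot10 at 8 and 24 h is the only subunit whose bars lie wholly below 0, at -28.1% and -28.9%, and the bars of Cnot6l are the widest.

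Deadenylation itself is carried out by a pair of nucleases in each complex. One is of the CCR4 type, either CNOT6 or CNOT6L, and the other is of the CAF1 type, either CNOT7 or CNOT8, so a complex holds 1 paralogue of each kind. The coding sequences of Cnot7 and Cnot8 were identical at 71.5% of 854 aligned bases, and those of Cnot6 and Cnot6l at 73.4% of 1649. The stretch of 75 coding bases in which each pair is most alike is shown because it bears on whether reads of paralogues can be told apart. Capitals mark the bases that differ between the paralogues, 11 for Cnot7 and Cnot8 and 10 for Cnot6 and Cnot6l. Sequences are those of the GENCODE M21 representative transcripts, 5′ to 3′, with coding bases counted from 1 at the A of the start codon.
Cnot7, coding bases 406 to 480: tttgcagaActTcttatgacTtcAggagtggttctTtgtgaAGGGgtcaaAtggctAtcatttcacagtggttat
Cnot8, coding bases 406 to 480: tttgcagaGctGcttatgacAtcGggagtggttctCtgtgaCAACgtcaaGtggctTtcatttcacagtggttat
Cnot6, coding bases 799 to 873: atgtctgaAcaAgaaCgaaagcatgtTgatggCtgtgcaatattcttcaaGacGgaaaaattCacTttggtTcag
Cnot6l, coding bases 799 to 873: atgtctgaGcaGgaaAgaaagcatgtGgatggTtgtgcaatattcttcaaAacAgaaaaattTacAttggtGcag
Even here differences are spread along the stretch. The longest run shared exactly by the transcripts of either pair was 20 bases, and no 100-base window was common to both paralogues of a pair.

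Cnot7, on chromosome 8 at 40492540 to 40515847, had 72.9 FPKM after 1 h against 72.3 before. Cnot7 had, at 8 h, 65.9 FPKM (45.8 to 86.0) against 73.2 (48.9 to 97.4). Cnot7 had, at 24 h, 67.9 FPKM (45.3 to 90.6) against 73.4 (49.0 to 97.9). The later levels were slightly lower, with log2 ratios of -0.15 and -0.11. Its gene body overlaps Zdhhc2 and Vps37a on the opposite strand, and 2.23% of its 100-base windows are shared with Zdhhc2. The locus deposited with the Cnot7 levels was longer, from 40423815 to 40634797, and also overlapped the locus of Mtmr7. Zdhhc2 was at 10.1 FPKM at 0 h in the 8 h table.

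Cnot8, on chromosome 11 at 58104153 to 58118594, had later values on the other side of 0 h. After 8 h it was 41.0 FPKM (33.0 to 49.0) against 37.5 (30.2 to 44.8) before. After 24 h it was 44.7 FPKM (35.8 to 53.6) against 37.6 (30.2 to 45.0), and after 1 h 46.1 against 48.3. Its log2 ratios were -0.07, 0.13 and 0.25, and the change at 24 h was 18.9%. The difference at 24 h was 7.10 FPKM, with an interval of -4.46 to 18.7, so no change was detectable. A processed pseudogene, Gm18860, shares 5.05% of the 100-base windows of Cnot8.

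The same 0 h libraries gave Cnot8 a level 1.29 times higher in the 1 h table than in the 8 h table, while the other 9 subunits had ratios between 0.981 and 1.02. The estimated counts of Cnot8 differed by a factor of 1.04 only. Its assembled locus began at 58104011 in the 1 h table and at 58104153 in the others, and 1000 counts were worth 21.03 FPKM in the former and 16.9 in the 8 h table. The locus of the 1 h table was thus the longer one, and the reason for its higher FPKM per count was not tested. Levels of Cnot8 should therefore be compared within a table only. The Cnot10 locus also differed, ending at 114646752 in the 1 h table and at 114640190 in the others, but its 0 h ratio was 0.990. So did the Cnot6 locus, which ended at 49712723 in the 1 h table and at 49712747 in the others, with a 0 h ratio of 1.02.

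Within the CAF1 pair, Cnot8 made up 33.9% of the summed FPKM before treatment, 38.4% after 8 h and 39.7% after 24 h. In the 1 h table its share was 40.1% at 0 h and 38.8% at 1 h. The sum of the pair was 111 FPKM before treatment, 107 after 8 h and 113 after 24 h. The summed level of CAF1-type nuclease mRNA thus differed less from 0 h than that of Cnot7 at 8 h or Cnot8 at 24 h.

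Cnot6, on chromosome 11 at 49671503 to 49712723, was 55.7 FPKM at 0 h and 59.8 at 1 h. After 8 h it was 49.7 FPKM (39.5 to 59.8) against 54.8 (43.6 to 66.0), and after 24 h 47.4 (37.3 to 57.5) against 55.0 (43.6 to 66.4). The log2 ratios were 0.10, -0.14 and -0.21. Cnot6l, on chromosome 5 at 96070333 to 96164171, was 9.15 FPKM at 0 h and 8.89 at 1 h. The later levels of Cnot6l were 10.4 FPKM (7.22 to 13.7) after 8 h against 9.33 (4.95 to 13.7), and after 24 h 10.4 (7.69 to 13.02) against 9.36 (4.92 to 13.8). Its log2 ratios were -0.04, 0.16 and 0.14.

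Cnot6l was the minor CCR4-type gene throughout, with Cnot6 5.87 times higher before treatment and 4.75 times higher after 8 h. Its share of the pair was 14.5% before, 17.4% after 8 h and 17.9% after 24 h. In both nuclease pairs the more abundant paralogue had log2 ratios below 0 at 8 and 24 h and the less abundant one above 0. The difference of the log2 ratios was 0.28 and 0.36 for Cnot8 against Cnot7, and 0.30 and 0.36 for Cnot6l against Cnot6. No test of these differences was possible, and for each of the 4 genes the intervals of 0 h and of the treated condition overlapped.

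**Figure D3:**
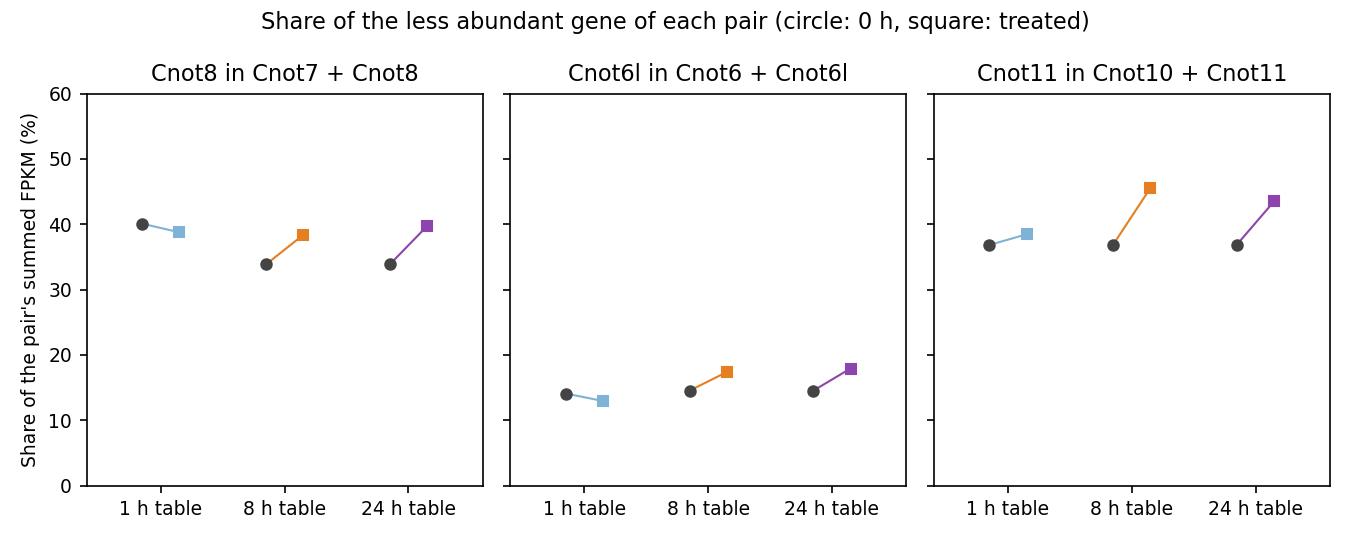
Share, in percent of the summed FPKM of a pair, of Cnot8, Cnot6l and Cnot11 in each table. Circles are 0 h and squares are the treated condition. The shares at 8 and 24 h lie above their 0 h values in all 3 pairs, and the 0 h share of Cnot8 is 40.1% in the 1 h table against 33.9% in the others.

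CNOT4 is a RING-type ubiquitin ligase that in mammals is only loosely attached to the complex. Cnot4, on chromosome 6 at 35022065 to 35133724, was 14.3 FPKM (11.2 to 17.5) at 0 h and 12.9 (10.1 to 15.7) at 1 h, with the lowest log2 ratio of the subunits at that time, -0.15. Cnot4 had 15.9 FPKM at 8 h against 14.5, and after 24 h 14.8 against 14.6. The log2 ratios of 0.13 and 0.02 were thus above 0 at both later times, and all intervals overlapped.

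Across the 10 subunits, 6 had log2 ratios above 0 at 1 h and 4 below. At 8 h and at 24 h, 4 were above 0 and 6 below. On estimated counts the tally was 4 above and 6 below at 1 h too, so the 1 h tally depends on the unit. Their median log2 ratios were 0.02, -0.11 and -0.10 in time order, beside medians over all tested loci of 0.01, 0.01 and 0.02. At both later times, 5 subunits (Cnot1, Cnot3, Cnot6, Cnot7 and Cnot10) were below 0 and 3 (Cnot4, Cnot6l and Cnot8) above. The ratios at 8 and 24 h, which share the 0 h libraries, were within 0.1 of each other for 7 of 10. Summed over the subunits, FPKM was 415 after 8 h against 459 before, and 420 after 24 h against 461. Ranked among all tested loci, the ratios of the subunits lay between percentiles 7.40 (Cnot10) and 66.3 (Cnot6l) at 8 h.

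**Figure D4:**
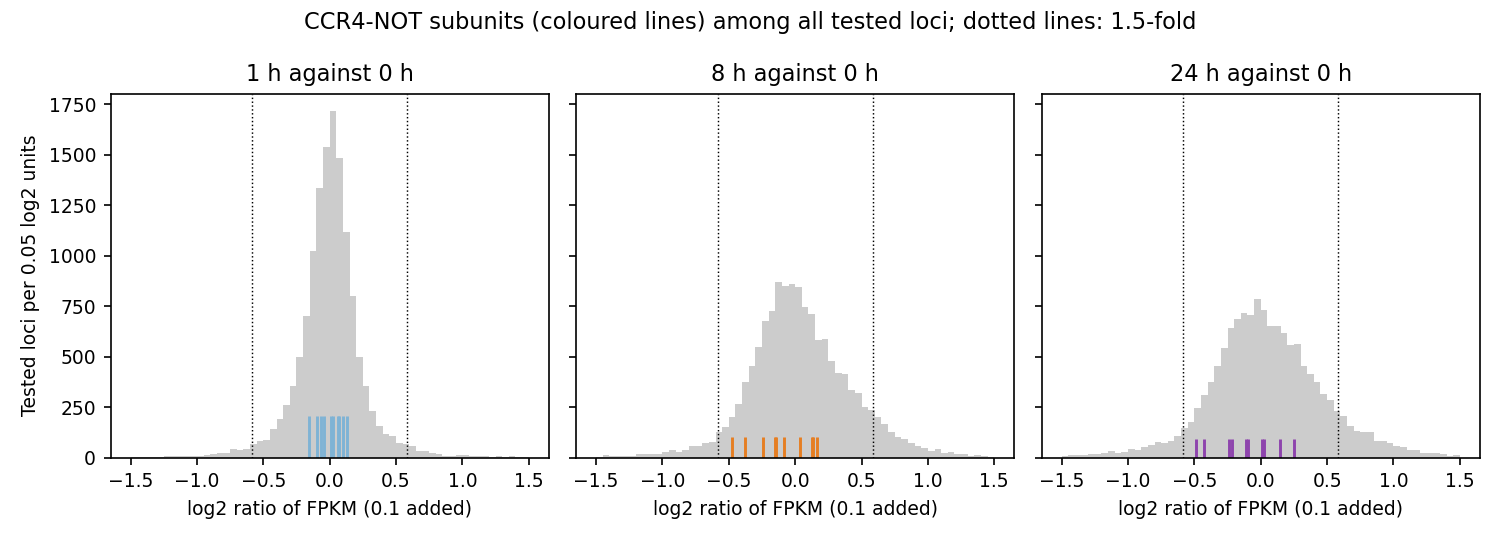
Number of tested loci per 0.05 units of the log2 ratio of FPKM at 1, 8 and 24 h (grey), with the 10 CCR4-NOT subunits as coloured lines. Dotted lines mark 1.5-fold in both directions. All coloured lines lie between the dotted lines, from -0.47 to 0.16 at 8 h and from -0.49 to 0.25 at 24 h, and bins beyond 1.5 log2 units are not drawn.

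Marker levels moved over the same times. The summed FPKM of the 6 pluripotency markers was 308 at 0 h and 199 at 24 h, and 2 of them, Dppa5a and Tdgf1, were called lower. Most of that difference was in Dppa5a alone, with 109 FPKM at 24 h against 200.4. The other 4 were not called, with log2 ratios from -0.27 (Pou5f1) to 0.18 (Zfp42). The sum of the 10 eye field and retinal progenitor markers was 771 FPKM at 0 h and 1024 at 24 h, with Rax and Lhx2 called higher. At 8 h neither list had a called gene. The photoreceptor gene Crx was called higher, at 2.89 FPKM after 8 h against 1.34. The part of such shifts in the subunit values was not tested. In bulk RNA, fewer cells of a type and less RNA per cell cannot be told apart.

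METTL3 places m6A mainly outside the neighbourhood of exon junctions, so the gene structure of the subunits was described. Junction density, in coding exon junctions per kilobase, ran from 3.96 in Cnot11 to 8.64 in Cnot2, with a median of 6.05 beside 6.16 over 10955 tested protein-coding genes. The longest internal exon was between 183 bases (Cnot2) and 498 bases (Cnot4), and Cnot4 was the only subunit with one of at least 400 bases. The median of that length was 220 bases over the subunits beside 215 over the 10204 tested genes with an internal exon. The last exon ran from 382 bases in Cnot3 to 7060 in Cnot6l, and was 462 in Cnot10. Its median was 1138.5 bases over the subunits beside 1287 over all tested protein-coding genes. The representative transcript of Cnot1 had 49 exons and that of Cnot10 had 20.

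Over the 10 subunits Spearman's rho of the log2 ratio with junction density was 0.04, -0.55 and -0.49 in time order, and over all genes it was 0.10, -0.47 and -0.40. For the length of the last exon, rho was 0.01, 0.77 and 0.73 over the subunits and -0.14, 0.24 and 0.19 over all genes. With the size of the longest internal exon it was -0.48, -0.04 and -0.11 over the subunits and -0.17, 0.22 and 0.16 over all genes. For GGACT per kilobase, described next, it was 0.65, -0.38 and -0.42 over the subunits and -0.04, 0.07 and 0.07 over all genes. These are descriptions over 10 genes of the same libraries, with 4 properties compared, and carry no p-value. The letters GGACT, the commonest form of the m6A consensus, were counted on the transcript strand. They occurred in 9 of 10 subunit transcripts, all but that of Cnot3, and in 91.6% of tested genes. Cnot1 had 11 occurrences, or 1.32 per kilobase, and Cnot10 had 3, or 1.05 per kilobase, where the median over all genes was 1.05. A match is a description and not a methylated site.

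The genes whose ratios were nearest to those of Cnot10 over the 3 treated times were Lap3, Ash2l, Vbp1, Uqcrc1 and Atxn10. Nearness was the Euclidean distance over the log2 ratios at 1, 8 and 24 h, among 8450 other genes of at least 5 FPKM at 0 h. Lap3, at a distance of 0.00653, had log2 ratios of 0.03, -0.47 and -0.49. In all, 70 genes lay within a distance of 0.1, so many genes had ratios like those of Cnot10.

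The genes that act with CCR4-NOT were examined next, as lists drawn up by known role while earlier results of these data were known. Their counts of calls are therefore only a description beside the background shares. Over 8 lists, the call rule was met by 0 of 80 tested genes at 1 h. It was met by 5 of 81 after 8 h and by 3 of 81 after 24 h, in each case by genes that were higher. The background shares for calls in the higher direction were 0.117%, 3.49% and 3.83%. The called genes were Ythdf1, Ythdf2 and Noct at 8 and 24 h, and Toe1 and Exosc4 at 8 h only by this rule, which does not test the times against each other.

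CNOT9, the subunit that binds the GW182 proteins of the miRNA pathway, is not among the 10. Cnot9 was 50.9 FPKM (35.9 to 65.9) before treatment and 46.2 (32.7 to 59.7) after 8 h. After 24 h it was 45.2 against 51.1, with log2 ratios of -0.14 and -0.18. It overlaps Usp37 on the opposite strand over its whole length. Of the BTG and TOB adaptors, which tether the CAF1-type nuclease to poly(A)-binding protein, 0 of 5 tested were called at any time. The medians of their log2 ratios were 0.14, 0.31 and 0.42 in time order.

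In the list of other deadenylases and related nucleases, calls were made for 2 of 8 tested genes after 8 h and for 1, Noct, after 24 h. Noct, or nocturnin, belongs to the same nuclease family as CNOT6 by sequence and acts on NADP(H). From 10.7 FPKM (8.34 to 12.97) before treatment it rose to 18.9 (15.1 to 22.8) after 8 h and 21.9 (17.4 to 26.5) after 24 h, with log2 ratios of 0.82 and 1.03. Toe1, a CAF1-related enzyme that trims the tails of small nuclear RNAs, rose to 33.4 FPKM (24.9 to 41.8) after 8 h against 17.2 (11.9 to 22.4) before, a log2 ratio of 0.96. At 24 h it was 28.2 FPKM against 17.2, with overlapping intervals. Toe1 overlaps Tesk2 on the opposite strand. The log2 ratios of this list ran from -0.35 to 0.96 at 8 h and from -0.36 to 1.03 at 24 h.

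Of the RNA-binding recruiters, 2 of 16 were called at 8 h and at 24 h, namely Ythdf1 and Ythdf2, which encode m6A readers. Ythdf3, the other reader of that family in the list, was not called, with log2 ratios of 0.39 and 0.25. Ythdf2 rose to 98.7 FPKM (74.5 to 123) after 8 h against 42.6 (33.2 to 52.0) before, while Cnot1, to whose product YTHDF2 binds, had a log2 ratio of -0.24. Ythdf1 rose from 44.8 to 87.5 FPKM. The median of the list was 0.08 at 8 h and 0.17 at 24 h. Of the miRNA silencing genes, 0 of 6 were called at 8 and 24 h, with medians of 0.18 and 0.09.

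The remaining lists had medians below 0 at 8 and 24 h and above 0 at 1 h, where they were 0.08 for decapping, 0.05 for the poly(A) list and 0.10 for the exosome. Of the decapping and repression genes, 0 of 19 were called at 8 and 24 h, with medians of -0.10 and -0.17. Of the poly(A)-binding proteins and poly(A) polymerases, 0 of 10 were called, with medians of -0.11 and -0.12. Of the exosome genes, Exosc4 rose at 8 h, from 14.5 FPKM (10.8 to 18.2) to 23.9 (18.7 to 29.1), and 0 of 14 were called at 24 h. The exosome medians were -0.13 and -0.16. Exosc4 overlaps Oplah on the opposite strand. No difference between the lists was tested.

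**Figure D5:**
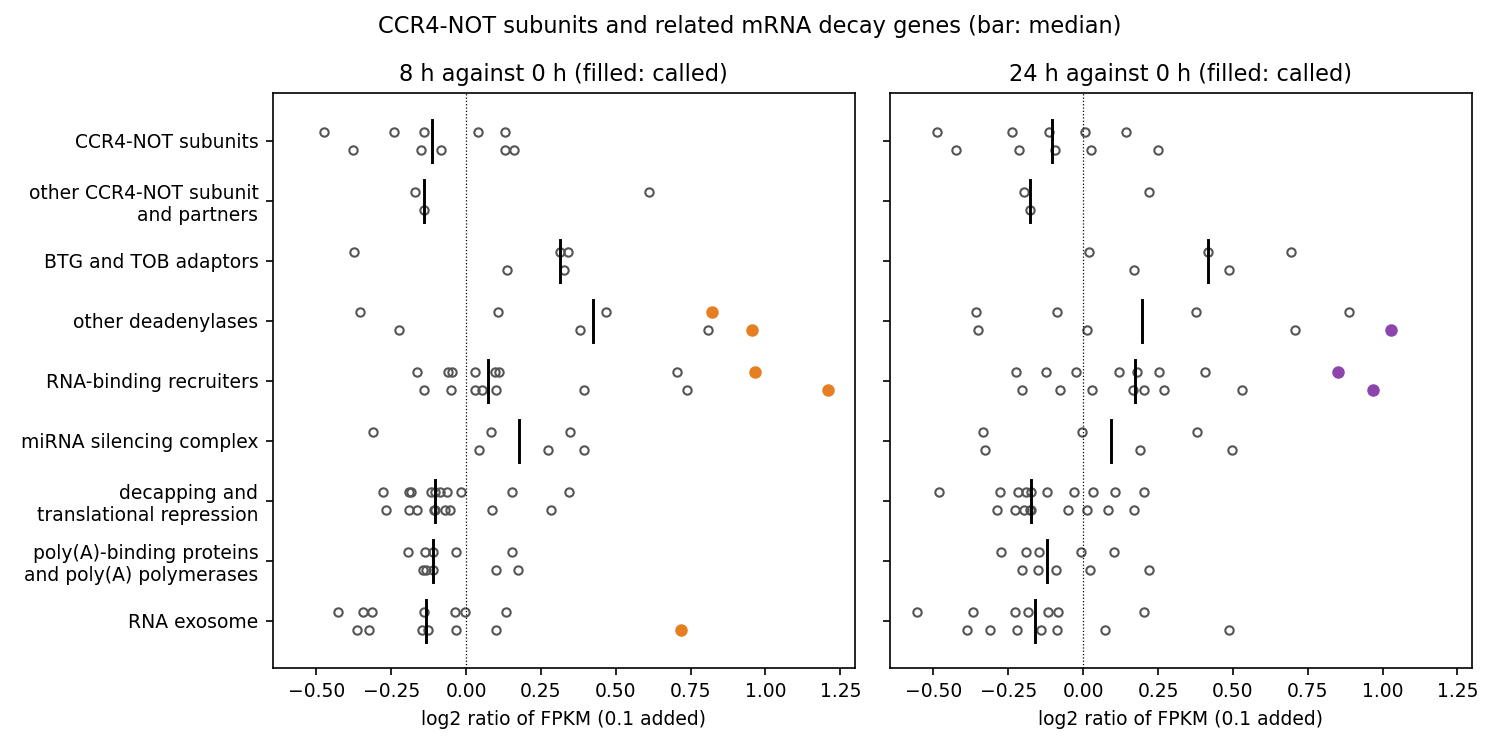
Log2 ratio of FPKM at 8 and 24 h for tested genes of CCR4-NOT and of 8 related lists, 1 point per gene. Filled points were called and bars are medians. No CCR4-NOT subunit is filled, and the filled points at 8 h are Ythdf1, Ythdf2, Noct, Toe1 and Exosc4.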

How the data were processed

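PolyA RNA of 8 samples (4 groups of 2, assigned from their titles) was sequenced as paired-end reads. Per the file headers, each treated time was set against 0 h in a table of its own. The authors deposited FPKM with an interval and a status, and estimated counts with a variance, combined over replicates. The submitters' processing notes name Cufflinks 2.2.1, Cuffdiff and mm10. The aligner, strand setting and interval level are not given in the sources used here. Locus starts were read as 0-based.

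Ratios are on the log2 scale of FPKM plus a pseudocount of 0.1, so changes of low genes are understated. Loci were tested with a status of OK and at least 1 FPKM in 1 of the conditions, and all 10 subunits were tested at each time. The call rule was checked on simulated tables. The interval of the difference joins both upper half-widths as the root of their squares.

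The subunits, lists and rules were chosen with earlier results of these data known. All subunits are named, related genes where called, and the 5 genes nearest to Cnot10, the subunit whose mean log2 ratio at 8 and 24 h was farthest from 0. Cnot9, Tnks1bp1, Ythdf3, the marker genes and genes that overlap a subunit were named outside this rule, with their values seen. Genes that overlap a named related gene, and those that share sequence with a subunit, were also named outside it. Gene models are those of GENCODE M21 (GRCm38, the assembly of mm10), with 1 transcript per gene by APPRIS rank, then coding length. Coordinates given for a gene are those of its model, and the deposited locus can be longer. Coding sequences were aligned with Biopython 1.88. Tables were handled with pandas 2.3.3 in Python 3.11.15. Alternatives covered the pseudocount, the expression filter, the fold threshold, the intervals, estimated counts and centring.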

Additional observations from a re-analysis of the deposited data

How the results depend on the processing

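The number of called subunits was 0 at 1, 8 and 24 h under each of 9 other settings. Not all of these could have added a call. Every subunit was above 5 FPKM, so changing the expression filter had no effect on them, and a 2-fold threshold is only stricter. The 1.5-fold difference without intervals repeats that no subunit reached 1.5-fold. With the interval of the difference, added after the values were seen, it was 1 at 8 h and 1 at 24 h (Cnot10 both times) and 0 at 1 h. The median log2 ratio of the subunits stayed between -0.12 and -0.06 at 8 h and between -0.12 and -0.09 at 24 h, while at 1 h it ran from -0.03 to 0.02. The largest shift of any subunit was 0.12, for Cnot3 at 24 h on estimated counts. Estimated counts turned the sign of Cnot1 (-0.04) and Cnot10 (-0.03) at 1 h, and centring that of Cnot2 at 24 h (-0.01). Over all loci the number called, 55, 612 and 762 at 1, 8 and 24 h, became 707, 1896 and 2371 without intervals and 39, 217 and 297 at 2-fold. At 1 h it was 95 without the expression filter, 30 at 5 FPKM and 28 on estimated counts, which gave 682 at 8 h and 872 at 24 h. No paired analysis was possible because each column pools both replicates of a condition and carries no replicate number, and no replicate could be left out. The interval widths limit what can be seen: at 8 h a fall of less than 32.6% would leave the intervals of every subunit overlapping. The 1.5-fold threshold of the call rule applies besides.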

Other observations

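Transcripts that share the locus of Cnot1 gave the following values. The antisense RNA 4930513N10Rik, which overlaps Cnot1 on the opposite strand over 721 bases, had 54.2 estimated counts at 0 h and 28.9 at 8 h, and 53.7 and 22.1 in the 24 h table. It stayed below 1 FPKM, so it was not tested. Gm31659, whose locus overlaps the deposited Cnot1 locus, had 1.88 estimated counts at 0 h and 1.04 at 8 h, and 1.87 and 5.08 in the 24 h table. These counts are too few to be read as a change. Of the 100-base windows of the Cnot1 transcript, 7.94% occur in 4930513N10Rik or the processed pseudogene Gm6158. Tnks1bp1, whose product binds the complex, was 14.7 FPKM (11.7 to 17.8) at 0 h and 22.5 (15.6 to 29.4) at 8 h, a log2 ratio of 0.61 with overlapping intervals, and its log2 ratio at 24 h was 0.22.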
